A study of Bos taurus with 16 samples.

Results

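PAG11, TKDP4, TFAP2C and CAPN6 are genes of the trophoblast and placenta, followed here in kidney RNA of cattle (Bos taurus). All spots whose symbol in the array's gene table is one of these 4 were taken, which gave 20 of 16896 spots, or 10 of 8448 spotted cDNA clones, each printed as a pair of spots. PAG11 had 4 clones and the other genes 2 each, and all 10 entered the tests, out of 5537 tested clones. Clones are named by the sequence identifiers that the gene table gives.

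The trophoblast is the outer cell layer of the embryo, from which the fetal side of the placenta forms. In ruminants its cells secrete families of proteins that are made there and in few other places. PAG11 belongs to the pregnancy-associated glycoproteins, which are related to pepsin and pass into the mother's blood. TKDP4 belongs to the trophoblast Kunitz domain proteins, secreted relatives of protease inhibitors. TFAP2C (AP-2 gamma) is a transcription factor that directs trophoblast formation and is also active in other epithelia. CAPN6 is a calpain relative that lacks the catalytic cysteine of the proteolytic calpains, binds microtubules, and is known from placenta and from embryonic muscle and mesenchyme.

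The kidney RNAs were replicates 1 and K at each of 4 stages. Round 0 is total RNA that was not amplified, and rounds 1, 2 and 3 are RNA taken through that many linear amplifications, which copy RNA by in vitro transcription. Each of the 8 RNAs was hybridised on a pair of arrays with the dyes Cy3 and Cy5 exchanged (a dye swap, 16 arrays in all), against a reference standard RNA that had itself been amplified for 2 rounds. The series was made to check linear amplification for use on single bovine embryos, and the comparison with round 0 asks how far an amplified RNA keeps the ratios of the unamplified one. The labels give neither the sex, age or breed of the cattle, nor whether replicates 1 and K came from separate animals, nor what tissue the reference was made from, so each p-value reflects the spread of these 8 RNAs alone, which may be technical. All values below are log2 ratios, kidney over reference, with the median of each array set to 0 and n = 2 RNAs per round. A ratio places kidney against the reference and does not say whether a transcript was present in kidney, since no intensities were used. Only at round 2 had kidney and reference gone through the same number of amplifications. At rounds 0, 1 and 3 a ratio holds both the difference in RNA source and that in amplification, which cannot be told apart. The direction of the ratio is likely rather than stated, because it was chosen so that the median of 13 clones of kidney marker genes lies above the reference (2.73, 2.81, 3.08 and 2.73 at rounds 0 to 3). With the opposite direction each sign below would turn. The sequence of the clones was not used here, and the symbols are those of the gene table.

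The ratios of the 10 clones rest on thinner data than those of most clones on the array. They had a ratio in 265 of 320 spots, and 14165 to 16057 of the 16896 spots of an array had one. Of the 265 ratios, 42 (15.8%) equalled the ratio of 2 whole numbers up to 10 against 9.28% of the spots of all clones with a listed gene. The share rose from 3.13% at round 0 to 19.1%, 15.2% and 25.4% at rounds 1, 2 and 3 for the 10 clones, and from 4.83% to 10.7%, 9.31% and 12.3% for all. Duplicate spots differed by a median of 0.64 for the 10 clones and 0.27 for all. In 11 of their 80 RNA values a single dye orientation gave a ratio, against 3.77% of the values of all tested clones. The cells of the 4 round 0 arrays all carry 3 decimals and those of the 12 amplified arrays do in 83.2% to 88.2%, so that round 0 and a difference in its processing cannot be told apart.

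CAPN6 was the farthest from the reference of the 4 genes, and both of its clones were lower at round 3 than in unamplified RNA. In unamplified RNA the CAPN6 clone BF039131 stood at place 2 of the 5537 tested clones, 61.8-fold above the reference. The clone AW465935 stood at place 26, 16.9-fold above the reference. These ratios set unamplified kidney RNA against a reference amplified for 2 rounds. After 1 round BF039131 was still 8.60-fold above the reference. The mean log2 ratio of AW465935 was then 0.03, with its Cy3 arrays above the reference and its Cy5 arrays below it. At round 2, where kidney and reference were equally amplified, the means were 3.96 for BF039131 and 0.39 for AW465935, whose dye orientations again differed in sign. After 3 rounds the order of the means of the 2 clones had turned, with log2 ratios of 2.00 for AW465935 and 1.06 for BF039131. The value of AW465935 there rests on 5 spots, 4 of them ratios of small whole numbers. PAG11, TKDP4 and TFAP2C lay nearer to the reference than CAPN6 in unamplified RNA, with RNA values from -1.76 to 1.86. Of their clones, PAG11 AW462838 (-1.07) and TKDP4 AW464617 (-0.61) were called below the reference there, calls that were lost without centring. Single clones of PAG11 and TFAP2C rose against round 0.

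**Figure D1:**
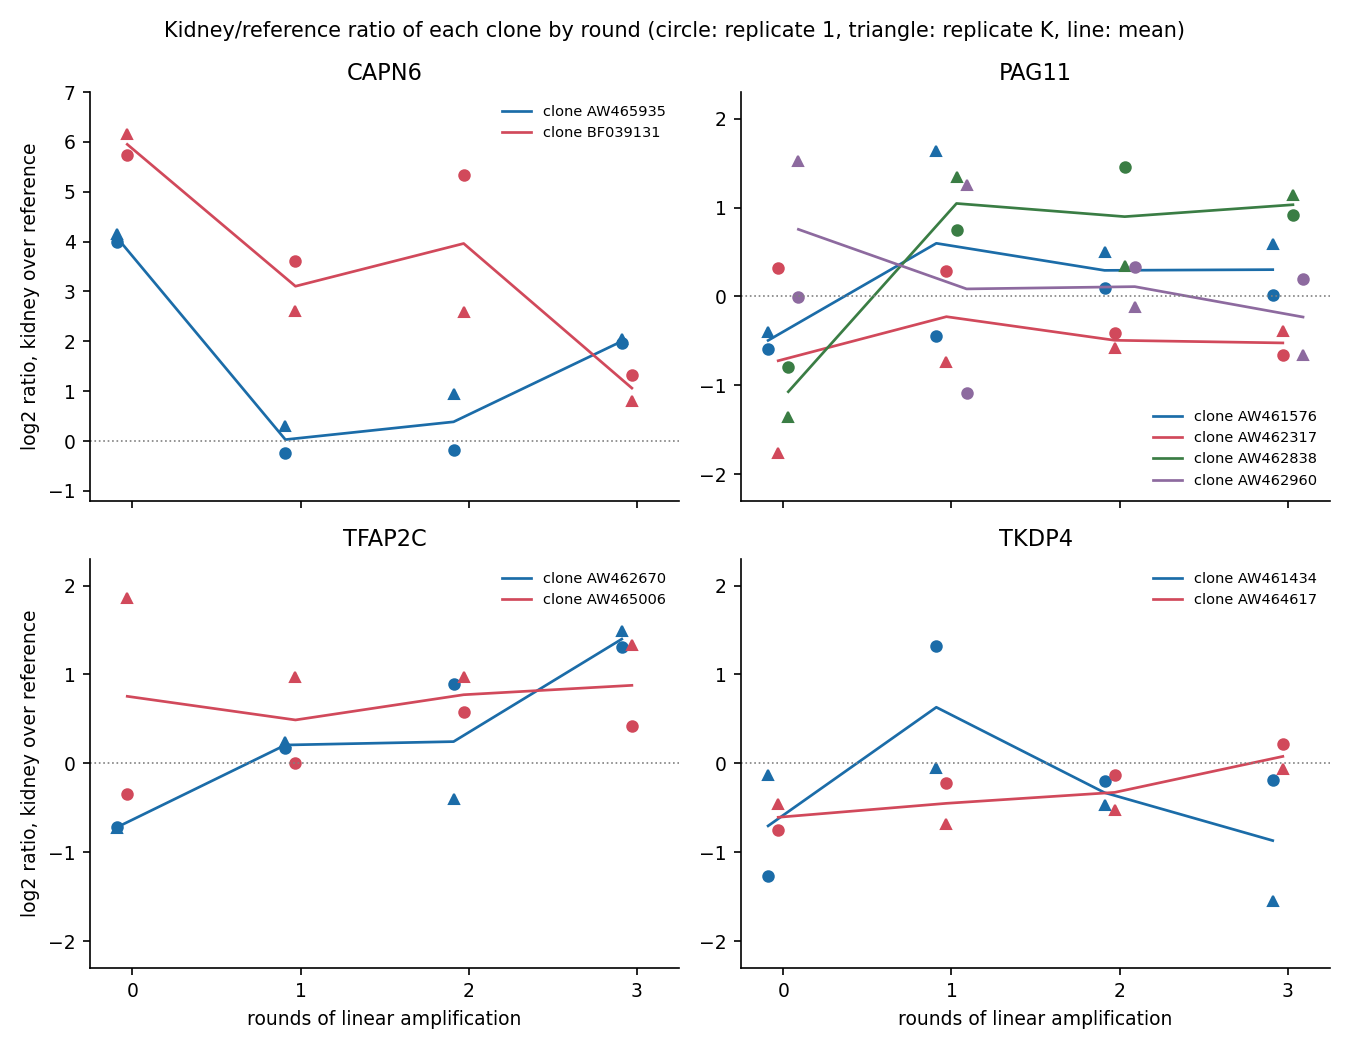
Log2 ratio of kidney over reference for each of the 10 clones against the number of amplification rounds, 1 panel per gene, with circles for replicate 1, triangles for replicate K and lines through their means. The CAPN6 panel has its own scale: its clones start at 4.08 and 5.95 and end at 2.00 and 1.06, while the other genes stay within 2 of the reference.

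The CAPN6 clone BF039131 had ratios of 5.75 in replicate 1 and 6.16 in replicate K at round 0. They were 3.60 and 2.60 at round 1, 5.33 and 2.60 at round 2, and 1.31 and 0.81 at round 3. The value of 0.81 includes a Cy5 array at -1.03, whose duplicate spots stood far apart at -3.38 and 1.31. Both replicates of each amplified round lay below both of round 0, and at round 2 the replicates were far apart, where replicate 1 rests on 1 spot of 1 array. The means were 5.95 ± 0.29 (SD, n = 2), 3.10 ± 0.71, 3.96 ± 1.93 and 1.06 ± 0.36. Against round 0 the ratio fell by 4.89 ± 0.85 (SE) at round 3 in the limma fit across all clones (adjusted p = 0.0235). The differences at rounds 1 and 2 were -2.85 ± 0.85 (adjusted p = 0.0779) and -1.99 ± 0.85 (adjusted p = 0.171), and neither passed.

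The CAPN6 clone AW465935 had ratios of 3.99 and 4.16 in replicates 1 and K at round 0, -0.24 and 0.29 at round 1, -0.17 and 0.94 at round 2, and 1.96 and 2.04 at round 3. Round 0 again stood above every amplified RNA, and both round 3 values stood above all 4 of rounds 1 and 2. Its ratio fell by 4.05 ± 0.39 (SE, n = 2, limma adjusted p = 0.00755) at round 1, by 3.69 ± 0.39 (adjusted p = 0.00871) at round 2 and by 2.08 ± 0.39 (adjusted p = 0.0279) at round 3.

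Both CAPN6 clones thus had all their amplified values below those of round 0, and their differences between rounds 1 and 3 had opposite signs. From round 1 to round 3 AW465935 differed by 1.97 ± 0.39 (limma adjusted p = 0.0749) and BF039131 by -2.04 ± 0.85 (adjusted p = 0.237), and neither passed. The difference of BF039131 minus AW465935 in the same RNA was 1.75 and 2.00 at round 0, 3.84 and 2.31 at round 1, 5.50 and 1.65 at round 2, and -0.65 and -1.23 at round 3. Over the 8 RNAs the clones correlated at r = 0.34, as a description of 2 clones measured on the same arrays.

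At round 0 the CAPN6 clones stood far above the reference in both dye orientations, and at later rounds the orientations of AW465935 parted. At round 0 all 4 arrays of AW465935 lay between 3.60 and 4.72 and all 4 of BF039131 between 5.38 and 6.94. At round 1 AW465935 stood at 1.37 and 1.99 on the arrays with kidney in Cy3 and at -1.84 and -1.40 on those with kidney in Cy5, so that its mean of 0.03 is the average of dye orientations of opposite sign. Round 2 was alike, at 0.94 and 1.16 in Cy3 and -1.50 on the 1 array in Cy5 with a ratio. At round 3 its 3 arrays lay between 1.94 and 2.04 in both orientations, but 4 of their 5 spots were ratios of small whole numbers, after 0 of 6 at round 0, 3 of 7 at round 1 and 2 of 4 at round 2. Over all rounds 9 of the 22 ratios of AW465935 (40.9%) were of that kind, more than in 98.0% of the listed clones. BF039131 had 2 of 26, both at round 3. Its arrays at round 1 lay between 1.11 and 4.10, and at round 3 between -1.03 and 2.65, and at both rounds these extremes were the dye swap of replicate K. With the spots of small whole numbers left out, BF039131 still passed at round 3 (limma adjusted p = 0.0259) and AW465935 had too few spots to be tested. The part of such spots in the values of AW465935 was not tested.

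A second limma fit used all 16 arrays with a term for the dye orientation. It counts the dye swaps of 1 RNA almost as separate replicates, since their correlation was estimated at -0.08, although there are only 8 RNAs, so its p-values may be too small. In it both CAPN6 clones were past the threshold against round 0 at each round. The call of BF039131 at round 2 rests on that fit, and its call at round 1 on that fit and the alternatives at the end of this paragraph. AW465935 differed by -4.05, -4.16 and -1.83 (limma adjusted p = 0.000296, 0.000472 and 0.0389) and BF039131 by -2.85, -2.69 and -4.89 (adjusted p = 0.0118, 0.0258 and 0.000459). The difference of AW465935 from round 1 to round 3 was 2.22 there (adjusted p = 0.0340), a call that the fit to the 8 RNAs does not give. The round 1 and round 2 calls of AW465935 held without each of the 8 RNAs in turn, with adjusted p up to 0.0402 and 0.0443, and that of round 1 was lost when only rounds 0 and 1 were fitted (adjusted p = 0.0555). The round 3 calls of both CAPN6 clones were lost without any 1 of the 4 RNAs of rounds 0 and 3. The differences were then -1.99 to -2.16 for AW465935 (adjusted p = 0.0920 to 0.112) and -4.64 to -5.14 for BF039131 (adjusted p = 0.0732 to 0.106). The round 3 call of AW465935 was also lost without the round 1, replicate 1, Cy3 array (adjusted p = 0.113) and without centring (-2.54, adjusted p = 0.0642). BF039131 passed at round 1 without centring (-3.86, adjusted p = 0.0196) and without either RNA of round 2 (adjusted p = 0.0292 and 0.0289).

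**Figure D2:**
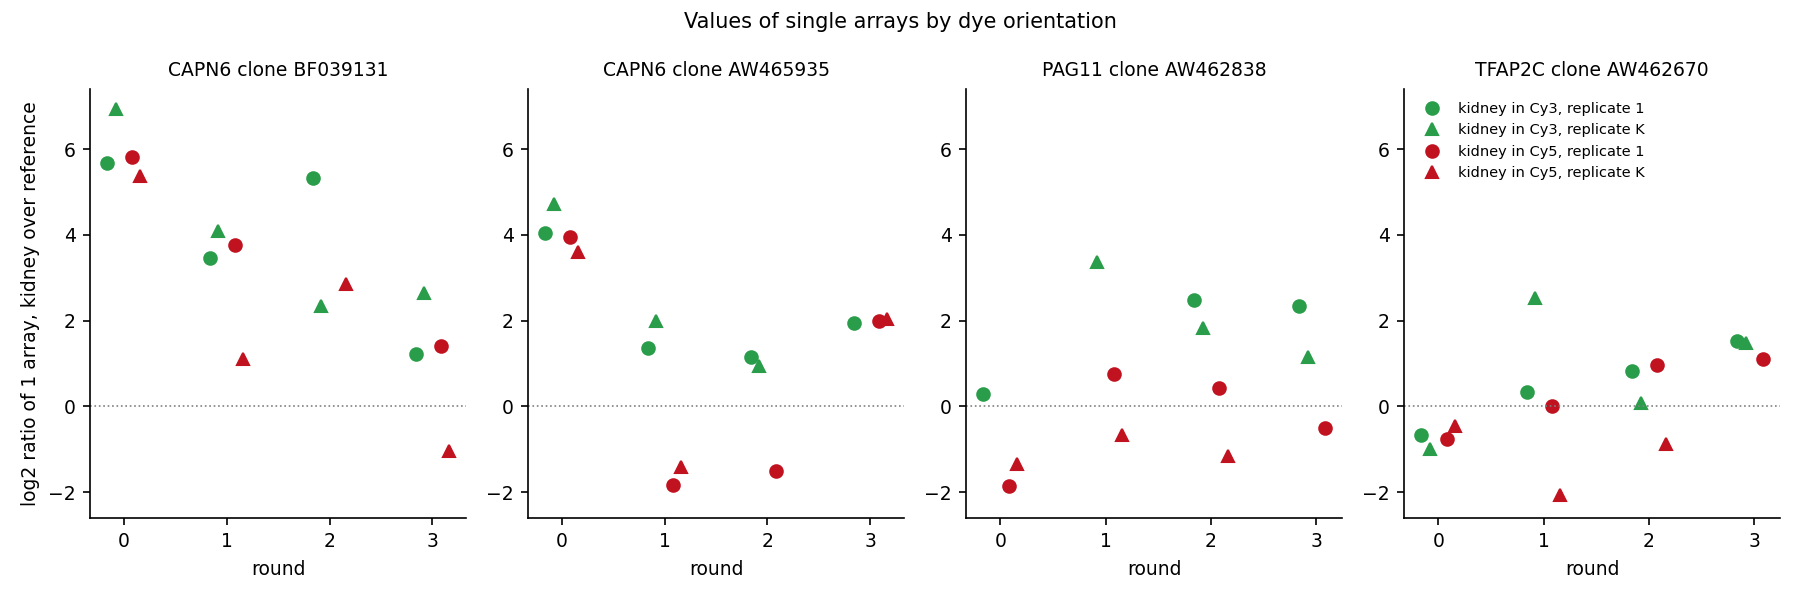
Log2 ratio on each single array against the round for the 2 CAPN6 clones, PAG11 clone AW462838 and TFAP2C clone AW462670, with green for kidney in Cy3, red for kidney in Cy5, circles for replicate 1 and triangles for replicate K. Both orientations of the CAPN6 clones are above 3 at round 0, while CAPN6 clone AW465935 at round 1 and PAG11 clone AW462838 at each round have their Cy3 arrays above their Cy5 arrays.

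Of the 2 TFAP2C clones 1 passed, at round 3. This clone, AW462670, had ratios of -0.71 in replicate 1 and -0.72 in replicate K at round 0, 0.18 and 0.24 at round 1, 0.89 and -0.40 at round 2, and 1.31 and 1.49 at round 3. Both replicates of each amplified round lay above both of round 0, and those of round 3 above all others. The means were -0.72 ± 0.01 (SD, n = 2), 0.21 ± 0.04, 0.25 ± 0.92 and 1.40 ± 0.12. At round 1 the value of replicate K is the average of 2.54 in Cy3 and -2.07 in Cy5. Replicate 1 stood there at 0.34 in Cy3 and 0.02 in Cy5. The SD of 0.04 therefore leaves out the spread between the dye orientations of replicate K. The ratio rose by 2.12 ± 0.41 (SE, limma adjusted p = 0.0290) at round 3, or 4.33-fold. The differences of 0.92 at round 1 and 0.96 at round 2 did not pass (adjusted p = 0.179 and 0.169), nor did that of 1.19 from round 1 to round 3 (adjusted p = 0.178).

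All 4 round 0 arrays of the TFAP2C clone AW462670 lay below 0 (-0.98 to -0.46) and all 3 round 3 arrays with a ratio above 1 (1.10 to 1.52), in both dye orientations. Replicate K of round 3 rests on its Cy3 array alone, and 8 of the 29 ratios of this clone (27.6%) were of small whole numbers, 1 of them at round 0. The round 3 call was lost without any 1 of the RNAs of rounds 0 and 3 (differences of 2.03 to 2.20, adjusted p = 0.0861 to 0.117), in the fit with a dye term (1.96, adjusted p = 0.0539), without centring (1.85, adjusted p = 0.0825), without the spots of small whole numbers (1.84, adjusted p = 0.0733), with both duplicate spots required (2.14, adjusted p = 0.0976) and on the Cy3 arrays alone (2.34, adjusted p = 0.0704). The Cy3 arrays alone gave a rise at round 1 too (2.27, adjusted p = 0.0484).

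The other TFAP2C clone, AW465006, passed in no comparison. It had ratios of -0.35 and 1.86 in replicates 1 and K at round 0, 0.00 and 0.98 at round 1, 0.58 and 0.97 at round 2, and 0.42 and 1.33 at round 3. Replicate K lay above replicate 1 at each round, and its round 0 value is a single spot. The difference of round 3 from round 0 was 0.12, with a 95% interval from -1.68 to 1.93, which overlaps that of AW462670 (1.13 to 3.10). The 2 TFAP2C clones correlated at r = 0.04 over the 8 RNAs. Of their 14 and 15 arrays with a ratio, all 6 arrays of each with kidney in Cy3 after amplification lay above the reference, beside 4 of 5 for AW465006 and 3 of 5 for AW462670 with kidney in Cy5.

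The means of PAG11 clones AW462838, AW461576 and AW462317 lay above round 0 at each amplified round, and those of AW462960 below it. Of the 4 clones only AW462838 had a call. Its ratios were -0.79 and -1.35 in replicates 1 and K at round 0, 0.75 and 1.35 at round 1, 1.46 and 0.34 at round 2, and 0.92 and 1.14 at round 3. Every amplified RNA stood above the reference and both unamplified ones below it. The ratio rose by 2.12 ± 0.43 (SE, n = 2, limma adjusted p = 0.0311) at round 1, by 1.97 ± 0.43 (adjusted p = 0.0385) at round 2 and by 2.10 ± 0.43 (adjusted p = 0.0331) at round 3. Between rounds 1 and 3 it differed by -0.01, with a 95% interval from -1.06 to 1.03.

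At every round the Cy3 arrays of PAG11 clone AW462838 stood above its Cy5 arrays. With kidney in Cy3 its 5 arrays of rounds 1 to 3 lay between 1.14 and 3.37, and with kidney in Cy5 its 5 arrays lay between -1.15 and 0.75. At round 0 the Cy3 array of replicate 1 stood at 0.29 and the Cy5 arrays at -1.87 and -1.35. In the 5 RNAs with both orientations Cy3 exceeded Cy5 by a mean of 2.81, a larger gap in size than that of 99.4% of the tested clones, for which the median was 0.52. The orientations present were not the same in each round: round 0 of replicate K and round 1 of replicate 1 have only the Cy5 array, and round 3 of replicate K only the Cy3 array. With a term for the dye the differences from round 0 were 2.12 (limma adjusted p = 0.0149) at round 1, 1.48 (adjusted p = 0.0515) at round 2 and 1.18 (adjusted p = 0.134) at round 3.

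The calls of PAG11 clone AW462838 also moved with single RNAs. That of round 1 held when either RNA of round 2 was left out, and was lost without any 1 of the other 6 (differences of 1.82 to 2.42, adjusted p = 0.0529 to 0.129). That of round 2 was lost without any 1 of the 8 (differences of 1.41 to 2.53, adjusted p = 0.0535 to 0.158). With only the compared rounds fitted both were lost (adjusted p = 0.0631 and 0.0894). That of round 3 was lost without any 1 RNA of rounds 0 and 3 (differences of 1.82 to 2.39, adjusted p = 0.0825 to 0.137). Without centring the differences were 1.40, 2.54 and 2.51, and none passed (adjusted p = 0.137, 0.115 and 0.0834).

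The other 3 PAG11 clones passed in no comparison between rounds and in none against the reference. AW461576 had -0.59 and -0.40 in replicates 1 and K at round 0, -0.44 and 1.64 at round 1, 0.09 and 0.50 at round 2, and 0.01 and 0.59 at round 3. The value of -0.44 includes a Cy5 array whose duplicate spots stood far apart at -3.71 and 1.16. The round 0 arrays of AW461576 lay between -0.72 and -0.25, and after amplification all 6 Cy3 arrays were above the reference and 5 of the 6 Cy5 arrays below it. The differences from round 0 were 1.09, 0.79 and 0.80 (adjusted p = 0.287 to 0.447), and without replicate 1 of round 1 the first was 2.13 (limma adjusted p = 0.0427).

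PAG11 clone AW462317 had 0.31 and -1.76 at round 0, 0.29 and -0.74 at round 1, -0.41 and -0.58 at round 2, and -0.65 and -0.39 at round 3. It was the PAG11 clone with the smallest gap between the dyes (a mean of 0.07 over 7 RNAs), and it did not pass: its differences from round 0 were 0.50, 0.23 and 0.20, with 95% intervals reaching from -1.43 to 2.13 in all. PAG11 clone AW462960 had -0.01 and 1.52 at round 0, -1.08 and 1.25 at round 1, 0.34 and -0.11 at round 2, and 0.20 and -0.66 at round 3. Its Cy3 arrays exceeded its Cy5 arrays in 8 of 8 RNAs, by a mean of 2.91, so that means near 0 stand for arrays from -2.71 to 3.41. Its differences of -0.67, -0.64 and -0.99 went the other way from those of the other PAG11 clones and did not pass (limma adjusted p = 0.466 to 0.645). At round 1 its 95% interval, from -2.71 to 1.37, overlapped that of AW462838, from 1.07 to 3.16. The highest correlation between any 2 PAG11 clones over the 8 RNAs was r = 0.61, for AW462838 and AW461576.

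TKDP4 passed in no comparison between rounds with either clone. AW464617 was the best measured of the 10 clones: all 32 of its spots had a ratio, none of them one of small whole numbers, and its duplicate spots differed by a median of 0.27. Its ratios were -0.75 and -0.46 in replicates 1 and K at round 0, -0.22 and -0.68 at round 1, -0.13 and -0.52 at round 2, and 0.22 and -0.07 at round 3. The round 3 values lay above both of round 0 and both of round 1. The difference of round 3 from round 0 was 0.68 ± 0.27 (SE, n = 2) and missed the threshold (limma adjusted p = 0.146), with a 95% interval from 0.02 to 1.34 before adjustment. The intervals at rounds 1 and 2 reached from -0.50 to 0.94, and lay closer to 0 than each of the called differences above.

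TKDP4 clone AW461434 had ratios of -1.27 and -0.14 at round 0, 1.32 and -0.06 at round 1, -0.19 and -0.46 at round 2, and -0.19 and -1.55 at round 3. Its dye gap was the widest of the 10 clones: Cy3 exceeded Cy5 in 7 of 7 RNAs, by a mean of 3.02, and after amplification all 6 Cy3 arrays lay above the reference and all 5 Cy5 arrays at -1.65 or lower. The higher value of replicate 1 at round 1 rests on its Cy3 array alone. The difference of 1.33 at round 1 did not pass (limma adjusted p = 0.214). On the Cy3 arrays alone it was 1.61 (adjusted p = 0.0433). The 2 TKDP4 clones correlated at r = 0.13 over the 8 RNAs.

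**Figure D3:**
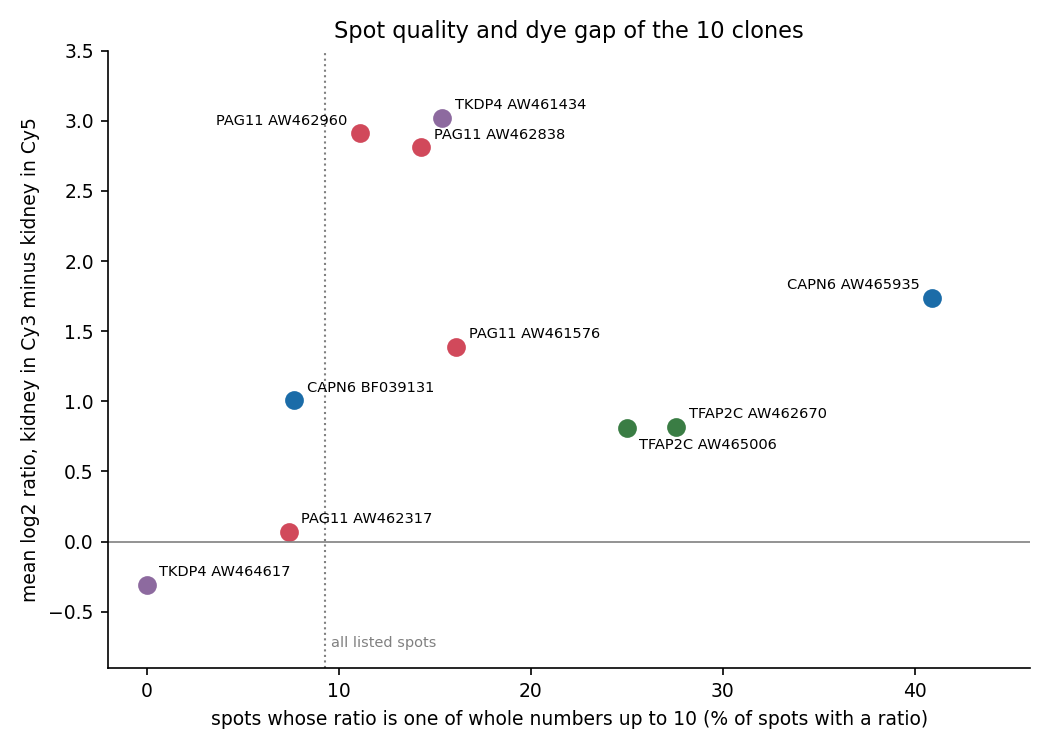
Mean log2 ratio with kidney in Cy3 minus that with kidney in Cy5, over the RNAs that have both, against the percentage of a clone's spots whose ratio is one of whole numbers up to 10. The dotted line marks the share over all listed clones. CAPN6 clone AW465935 is farthest right at 40.9%, the widest gaps are 3.02 (TKDP4), 2.91 and 2.81 (PAG11), and TKDP4 clone AW464617 sits at 0% with a gap of -0.31.

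Counted over the 10 clones, 2 passed at round 1 against round 0 (1 up, 1 down), where 13.3% of all tested clones passed (5.42% up, 7.87% down). At round 2 there were 2 (1 up, 1 down) beside 11.2% of all (4.41% up, 6.79% down), and at round 3 there were 4 (2 up, 2 down) beside 11.7% of all (4.61% up, 7.1% down). From round 1 to round 3 limma called 0 of the 10 beside 0.289% of all, each of those lower, although 2 of the 10, CAPN6 clone AW465935 and TFAP2C clone AW462670, had an unadjusted p under 0.05 and 1 clone passed in the 16-array fit with a dye term. At round 1 there were 3 without either RNA of round 2 and 1 without any RNA of rounds 0 and 3 or replicate K of round 1. At round 2 there was 1 without any of the 8 RNAs, and at round 3 there were 0 without any RNA of rounds 0 and 3. The median difference of the 10 clones was 0.33, 0.25 and 0.16 at rounds 1, 2 and 3, and that of all tested clones -0.03, 0.01 and 0.00. Replicates did not overlap between the rounds for 5, 5 and 6 of the 10 against round 0, beside 64.1%, 64.3% and 65.1% of all clones, and for 5 of the 10 between rounds 1 and 3, beside 52.7%. Lack of overlap was therefore no more frequent among the 10 than among all clones. The pooled SD between replicates was 0.26 for TKDP4 clone AW464617, 0.44 for CAPN6 clone AW465935, 0.46 for TFAP2C clone AW462670 and 0.50 for PAG11 clone AW462838. It was 0.78 to 1.05 for the other 6, among them CAPN6 clone BF039131, against a median of 0.31 over all tested clones.

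**Figure D4:**
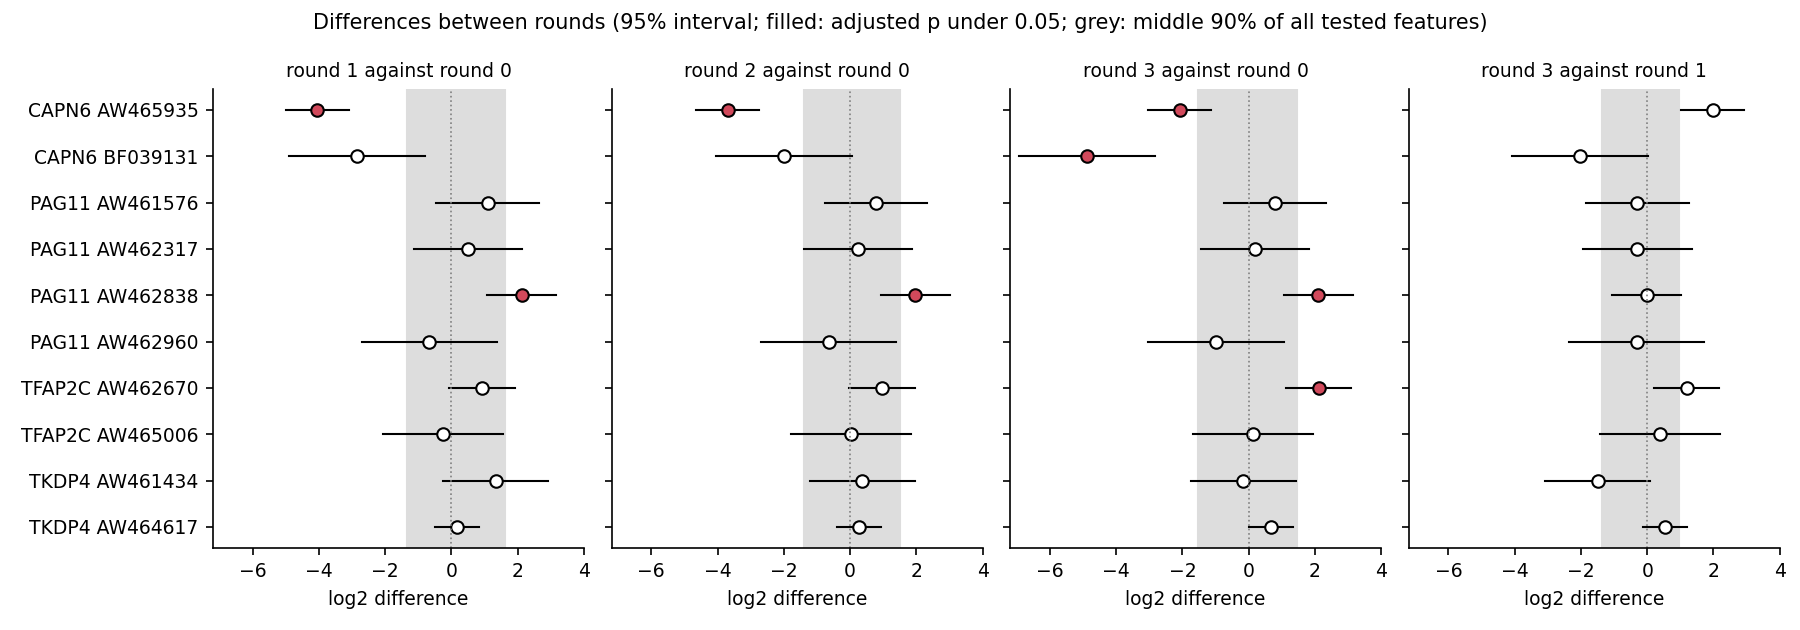
Log2 difference between rounds with its 95% interval for each of the 10 clones in 4 comparisons. Filled points passed at adjusted p under 0.05, and the grey band holds the middle 90% of all tested clones. The CAPN6 clones lie left of the band in the comparisons with round 0, PAG11 clone AW462838 and at round 3 TFAP2C clone AW462670 lie right of it, and no point is filled for round 3 against round 1.

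Against the reference, 4 of the 10 passed at round 0 beside 38.7% of all tested clones (19.6% above and 19.1% below). They were both CAPN6 clones above it (limma adjusted p = 0.000202 and 0.000795), and below it PAG11 clone AW462838 (-1.07, adjusted p = 0.0343) and TKDP4 clone AW464617 (-0.61, adjusted p = 0.0485). Without centring the TKDP4 value was 0.07, on the other side of the reference, and neither of these lower calls passed. At round 1 there were 2 beside 37.8% of all (16.9% above, 20.9% below), CAPN6 clone BF039131 (3.10, adjusted p = 0.00881) and PAG11 clone AW462838 (1.05, adjusted p = 0.0380). At round 2 there was 1 beside 35.2% (16.6% above, 18.6% below), CAPN6 clone BF039131 (3.96, adjusted p = 0.00385). At round 3 there were 3 beside 35.1% (16.7% above, 18.4% below), CAPN6 clone AW465935 (2.00, adjusted p = 0.00280), TFAP2C clone AW462670 (1.40, adjusted p = 0.0120) and PAG11 clone AW462838 (1.03, adjusted p = 0.0416). Without centring PAG11 clone AW462838 stood at 0.34 at round 1 (adjusted p = 0.654) and 1.44 at round 3 (adjusted p = 0.0655), where its calls were lost, and passed at round 2 (1.47, adjusted p = 0.0479). No clone passed at all 4 rounds. The count at round 0 was 2 without replicate K of round 0 or either RNA of round 3, that at round 1 was 1 without any RNA but those of round 2, that at round 2 was 3 without its replicate K, and that at round 3 was 2 without either RNA of rounds 0 and 1 and 1 without either of round 3.

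The wider pregnancy-associated glycoprotein family had 8 more clones with 1 symbol (PAG7, PAG8, PAG10, PAG12 and PAG17), 6 of them tested, and 4 clones given to more than 1 gene, which are not named. The family's genes are close paralogs, and whether their transcripts hybridised to each other's spots was not tested. With PAG11, 73 of the 94 RNA values of the 12 single-symbol clones lay within 1 of the reference and 3 lay more than 2 from it. Among all tested clones 72.1% of RNA values lay within 1. At round 1 PAG7 rose by 1.42 ± 0.27 (SE, n = 2, limma adjusted p = 0.0256) and PAG12 fell by 1.38 ± 0.33 (adjusted p = 0.0437), beside a median of 1.15 over the 6 tested clones. At rounds 2 and 3 none of the 6 passed with limma, with medians of 0.72 and 0.32, and 2 and 3 of them had an unadjusted p under 0.05. Of all tested clones 13.3%, 11.2% and 11.7% passed at rounds 1, 2 and 3. Without centring the medians of the 6 clones were -0.05, 0.62 and -0.04, and PAG7 stood at 0.41 (adjusted p = 0.501). TKDP1, the 1 other clone of the Kunitz family, did not pass at any round (differences of -0.02, 0.25 and -0.23).

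**Figure D5:**
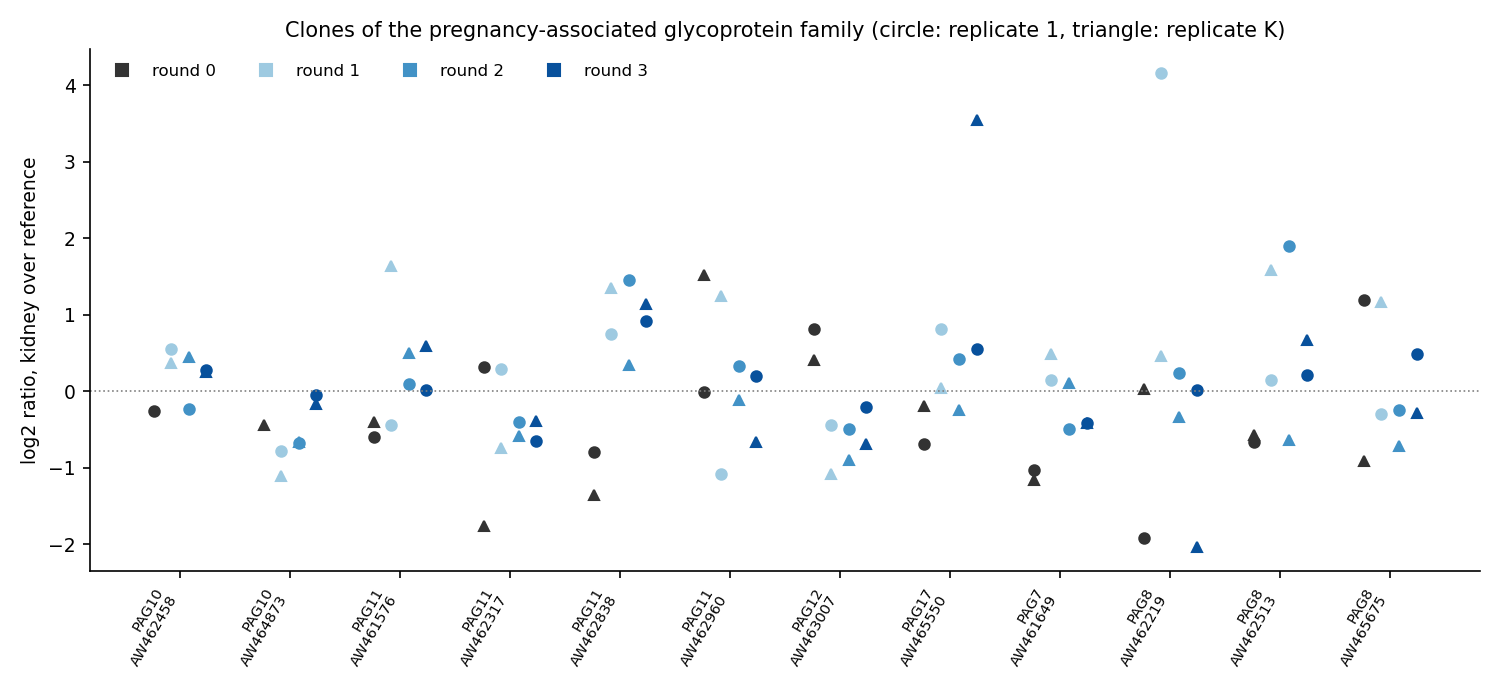
Log2 ratio of kidney over reference in each RNA for the 12 single-symbol clones of the pregnancy-associated glycoprotein family, coloured by round, with circles for replicate 1 and triangles for replicate K. Most values lie within 1 of the reference, and the 3 beyond 2 are single replicates of PAG8 and PAG17.

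Calls among other trophoblast genes are given beside the 13.3%, 11.2% and 11.7% of all tested clones that passed at rounds 1, 2 and 3. By direction these shares were 5.42%, 4.41% and 4.61% up and 7.87%, 6.79% and 7.1% down. Of 25 tested clones for other secreted proteins, membrane proteins and enzymes of trophoblast, 2 rose and 2 fell at round 1 and 1 each way at rounds 2 and 3, with medians of 0.09, 0.17 and 0.20. PRP6, a prolactin-related protein, rose by 1.27, 1.40 and 1.57, and PRP1, of the same family, by 1.49 at round 1. SPP1 (osteopontin), which kidney tubules also make, fell by 1.37, 1.15 and 1.26 in clone BF042926, and by 1.19 at round 1 in clone BF040885. Of 24 tested clones for transcription factors of trophoblast, 2 rose and 1 fell at round 1, none passed at round 2, and 1 fell at round 3, with medians of 0.11, 0.14 and 0.06. ID2, with 1 tested clone, rose by 0.86 at round 1. TBX3 rose by 2.58 at round 1 in clone BF042584 alone of its 4, and the other 3 differed by -0.91, -0.40 and -0.54 without passing. GATA2 fell by 1.23 at round 1 in clone AW464010, and its other 3 clones, at 0.06, -1.01 and -0.56, did not pass. GATA3, which the kidney's collecting duct also makes, fell by 1.86 at round 3 in clone BF041614, and its other clone, at -0.37, did not pass. At round 2, where 0 of the 24 passed with limma, 9 had an unadjusted p under 0.05.

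Of the other calpain genes, 3 clones were tested, where 11.2% and 11.7% of all tested clones passed at rounds 2 and 3. CAPN15 rose by 1.19 and 1.54 at rounds 2 and 3, and calpastatin (CAST), the inhibitor of the proteolytic calpains, fell by 0.89 and 0.85. CAPN2, the large subunit of m-calpain, named here after its values were seen, did not pass against round 0 and stood below the reference at each round (-1.23, -1.36, -1.47 and -1.37, limma adjusted p = 0.00324 to 0.00594). CAST was also called below it at each round (-0.72, -1.15, -1.60 and -1.57), and CAPN15 at rounds 0 and 1 (-1.29 and -0.55). Of all tested clones 19.1%, 20.9%, 18.6% and 18.4% were called below the reference at rounds 0 to 3. Without centring the round 0 values of CAPN2 and CAST were -0.56 and -0.04 and did not pass (limma adjusted p = 0.157 and 0.922). Both calls of CAPN15 below the reference were then lost too. Without centring the median difference of all tested clones shifted by -1.01, -0.09 and -0.34 at rounds 1, 2 and 3 against round 0, and single clones shifted by other amounts. Of the names in these lists, ID2 then turned to -0.15, PRP1 was 0.01 and PRP6 at round 1 was 0.26, and the upward calls of CAPN15, ID2, PAG7, PRP1, PRP6 and TBX3 were lost, as were those of CAST and GATA3 and those of SPP1 at rounds 2 and 3.

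Markers of other cells in the kidney were counted in the same way, beside 13.3%, 11.2% and 11.7% of all tested clones at rounds 1, 2 and 3. Of 12 tested clones for immune cells, 1, 0 and 2 rose and none fell at rounds 1, 2 and 3 (medians 0.11, 0.49 and 0.42). Of 16 for stroma, 2 rose at each of rounds 1, 2 and 3 and 2, 2 and 1 fell (medians 0.53, 0.34 and 0.33), and of the 13 kidney clones 0, 1 and 1 rose and 2 fell at each (medians -0.19, -0.22 and -0.35). Blood markers had no clone on the array. These counts compare rounds of amplification of extracted RNA and are no measure of cell makeup. In a ratio of bulk kidney RNA over the reference, more cells of a type and more RNA per cell cannot be told apart. The part of cell makeup in the ratios of the 4 genes was not tested.

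The courses of the called clones were also set against every other tested clone with 1 symbol, by Pearson's r over the 8 RNAs. CMTM6 and THOC5 were most like CAPN6 clone AW465935 (r = 0.98 for each), and SPC24 and LOC782748 most like BF039131 (r = 0.96 and 0.95). For PAG11 clone AW462838 they were PDLIM7 and BTG1 (r = 0.98 and 0.97), and for TFAP2C clone AW462670 CMC4 and MYADM (r = 0.99 and 0.95). The highest r of the named clone with another clone of its own gene was 0.34, 0.34, 0.61 and 0.04. The best of all other clones could hardly fail to exceed the best of so few, so these values cannot be compared. All points share arrays and the reference, and the names are the highest of many values over 8 points. In the current gene annotation PAG11 lies between PAG6 and LOC528815, TKDP4 between its relatives TKDP1 and TKDP2, TFAP2C between BMP7 and FAM209A, and CAPN6 between PAK3 and DCX.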

How the data were processed

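For 15 arrays the authors deposited log2 ratios of both channels. In the Cy3 array of replicate 1 at round 1 such ratios end at spot 15810 and 69 whole numbers of another kind follow (-26 to 3827), so that this deposited column was checked as a score and not as log2. These 69 were left out, and its log2 ratios were used like the others. How the authors normalized their ratios is not stated in the sources used here. A deposited code of 16.61 and values beyond 10 in size were taken as missing. Whether Cy5 stands over Cy3 is not stated and was taken as likely from the kidney list. Arrays with kidney in Cy3 were turned, the median of the 5693 clones with a listed gene was set to 0 on every array, duplicate spots were averaged, then the dye swap of each RNA. Arrays cannot be given a read depth: their number limits the precision.

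The comparison of rounds used lmFit and eBayes of limma 3.58.1 (R 4.3.3), a mean for each round over all 8 RNAs, 4 residual and 2.40 prior degrees of freedom. The 5537 listed clones with a value in every RNA were tested, Benjamini-Hochberg adjusted over all of them at 0.05; the mean of each round was also tested against 0. An exact test of 2 against 2 cannot go below p = 0.333. The main fit did not pair the RNAs by the replicate names 1 and K. Residuals correlated above 0.1 in 1 of 6 pairs of rounds (0.169 for rounds 2 and 3), which does not show that the RNAs were unpaired. Ratios of small whole numbers were those within 0.0006 of log2 of a ratio of whole numbers up to 10, a measure chosen after seeing the data. The alternatives in the closing section vary centring, dye, spots, rounds fitted, the block and the RNAs. All clones of the 4 genes are named. From each list, the 2 called clones with the largest difference each way against round 0 are named. For each called clone of the 4 genes, the 2 most like it are. The genes, lists and rules were chosen with earlier results of these data known. Figures were drawn with matplotlib 3.10.9 and pandas 2.3.3. The 5591 single symbols with an identifier in the current RefSeq genes were the same there, which also gave the neighbouring genes (assembly ARS-UCD2.0).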

Additional observations from a re-analysis of the deposited data

How the results depend on the processing

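The called differences of the 10 clones between rounds kept their sign under each alternative in which the clone could be tested, while 2 to 5 alternatives per call could not test it. Against the reference at round 0, the call of TKDP4 clone AW464617 below it turned to 0.07 without centring. Leaving out each RNA in turn gave 108 to 469 tested clones past the threshold at round 1, 24 to 528 at round 2 and 91 to 541 at round 3 against round 0, and 0 to 3 for round 3 against round 1. For the 10 clones it gave 1 to 3, 1, 0 to 4 and 0, and 2 to 4, 1 to 2, 1 to 3 and 1 to 4 against the reference at rounds 0 to 3. A round left with 1 RNA is assumed to vary like the others.

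The remaining counts that moved by over 1.5 times are given in the order round 1, 2 and 3 against round 0, then round 3 against round 1. Without centring, 1870 (39 higher, 1831 lower), 67, 130 (21 higher, 109 lower) and 0 of all clones passed, against 736, 620, 648 and 16; of the 10 clones 1 passed at round 2, 1 at round 3, and 2, 1 and 2 against the reference at rounds 0, 1 and 2. With a dye term over 16 arrays, which are dye swaps of 8 RNAs, 1291, 1245, 1323 and 534 of all passed; of the 10 clones 2 passed at round 3 (both of CAPN6), 1 for round 3 against round 1 (CAPN6 clone AW465935), and 2 and 1 against the reference at rounds 2 and 3. With only the compared rounds fitted, 2, 145, 200 and 0 of all passed, and 0 and 1 of the 10 at rounds 1 and 2. With the replicate block, 1 of the 10 passed at round 2 (PAG11 clone AW462838 was lost) and 3, 1, 1 and 2 against the reference at rounds 0 to 3; it changed no other call of the 10 between rounds. Whether the replicate names pair the RNAs was not settled by the correlation of residuals. Without the round 1, replicate 1, Cy3 array, 346, 340 and 310 of all passed, and 1 of the 10 at round 2.

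Stricter use of spots left few of the 10 clones testable. Both duplicate spots required: 0 of 4 passed at rounds 1, 2 and 3, 1 against the reference at round 0 and 0 at rounds 1, 2 and 3, and 165 of all for round 3 against round 1. The following 4 were chosen after seeing the data. Both dyes required: 0 of 3 at rounds 1, 2 and 3, 1 and then 0 against the reference, and 232 of all for round 3 against round 1. Spots of small whole numbers left out: 0, 0 and 1 of 8, 2, 1 and 0 against the reference at rounds 0, 1 and 3, and 44 of all for round 3 against round 1. Cy5 arrays only: 207 and 252 of all at rounds 1 and 2, 0 of 4 at rounds 1, 2 and 3, and 1, 0, 0 and 0 against the reference. Cy3 arrays only: 0 of 7 at round 2 and 1 at round 3, 393 of all at round 3 and 0 for round 3 against round 1, and 1, 5 and 2 against the reference at rounds 0, 1 and 2. The cause was not tested. Using all clones, listed or not, the missing code alone, or the last whole numbers moved no count as far.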
